A study of Mus musculus with 8 samples.

Results

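The genes described here had acetylated promoters in control breast tumors alone. They are the autosomal protein-coding genes with an H3K27ac peak within 1 kb of the transcription start site in each of the control tumors but in no test tumor, and 114 of 20807 genes met this rule (0.548%). The members were chosen by the presence of peaks in these same 4 tumors, so the contrast between groups at their promoters is a description and no test was made of it. The mirrored rule, with peaks in both test tumors and neither control tumor, found 66 genes (0.317%). The size of this gap depended on the peaks used: with equal peak numbers per tumor the counts were 95 control-only and 90 test-only, with at least 200 covered bases 99 and 79, and with peaks of at least 1 kb 93 and 179.

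H3K27ac is acetylation of lysine 27 of histone H3, and it was mapped by chromatin immunoprecipitation sequencing (ChIP-seq) in 2 control and 2 test tumors, each from a different mouse. All mice were Balb/c animals that carried the polyoma middle T oncogene (PyMT), which is driven in mammary epithelium by the MMTV promoter, and lacked Rag1 (Rag1KO), so that they made no T or B cells of their own. Every animal, control or test, was given wild-type CD4+ T cells when it was 4 weeks old, and tumors were taken at terminal size, at an age that the labels do not give. Control mice were PyMT;Rag1KO, and test mice were K14-TSLPtg;PyMT;Rag1KO, with a further transgene in which the keratin 14 promoter of basal epithelium and skin drives the cytokine TSLP. The titles of the test samples say cyst and those of the control samples say tumor. Numbers 1 and 2 only name the tumors.

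Acetylation of H3K27 marks promoters and enhancers in active use, and at a promoter the acetylated nucleosomes flank the start site. Housekeeping genes carry the mark in nearly every cell type, whereas genes of a single cell type carry it mainly in that cell type. A piece of breast tumor holds carcinoma cells together with fibroblasts, vessels and leukocytes, and its peaks are the sum over all of them.

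The 4 lists held 59762 to 69861 peaks, fewest in test 2, and 11079 to 11559 of the 20807 promoters had a peak in each tumor. The lists give peak positions without height or depth. Promoters of luminal epithelial markers were acetylated throughout, with peaks at Krt8, Krt18, Epcam and Cdh1 in all 4 tumors, while the luminal factor Elf5 had one in control 1 and test 1 only and the basal markers Krt5 and Krt14 likewise. No tumor had a peak at the promoters of Trp63, Kdr, Cd3e, Cd4 or Adipoq, nor at the endogenous promoters of Tslp and Rag1, which report neither on the transgene nor on the knockout.

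Members came from several cell types and functions. Sorted by known function once the names had been seen, with no like sorting of all genes to set beside it, 36 of the 114 members (31.6%) were leukocyte genes, with Itgam and the overlapping Gm49368 as separate entries, 16 were genes of the extracellular matrix and of stromal cytokines, 6 were endothelial, 12 served metabolism and transport, 12 were receptors, channels and adhesion genes, 6 were genes of cilia or the germ line, 2 were Hoxb genes, and 24 fell in none of these classes. The control peaks at these promoters were narrow, with a median width of 270 bp in control 1 and 304 bp in control 2, against 1446 bp and 1553 bp at the 10584 promoters with a peak in all 4 tumors. The flanks, which share the contrast that chose the members, were also covered less in the test tumors. From 1 to 10 kb either side of the start site, mean peak coverage in percent of bases was 8.31 and 7.64 for the control tumors, against 5.46 for test 1 and 4.07 for test 2 (88 members with any), and over all genes with such coverage it was 10.6, 10.5, 11.4 and 9.55.

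The promoters of 4 members illustrate the set, because these members also stood on marker or pathway lists and cover a cytokine, a growth factor binding protein, a glycolytic enzyme and a chemokine. Each sequence runs from 250 bp before to 50 bp after the GENCODE start site, was read from the GRCm38 genome and is written 5′ to 3′ on the strand of the gene. Capitals mark matches, on either strand, to the letters of AP-1 (TGANTCA), of the cyclic AMP element CRE (TGACGTCA), of the ETS core (GGAAGT), of the GC box (GGGCGG), of the box named for its own letters CCAAT, of the start-proximal element (TATAAA), of RUNX factors (TGTGGT) and of C/EBP factors (TTNNGNAA), and to NF-kB by its consensus. A match is a run of letters and no evidence that the factor binds there.
Il6: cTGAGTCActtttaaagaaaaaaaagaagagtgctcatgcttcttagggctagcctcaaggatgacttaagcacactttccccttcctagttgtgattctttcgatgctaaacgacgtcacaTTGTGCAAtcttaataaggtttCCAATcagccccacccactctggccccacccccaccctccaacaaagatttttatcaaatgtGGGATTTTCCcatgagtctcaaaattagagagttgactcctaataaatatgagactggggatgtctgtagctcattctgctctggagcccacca
Igfbp3: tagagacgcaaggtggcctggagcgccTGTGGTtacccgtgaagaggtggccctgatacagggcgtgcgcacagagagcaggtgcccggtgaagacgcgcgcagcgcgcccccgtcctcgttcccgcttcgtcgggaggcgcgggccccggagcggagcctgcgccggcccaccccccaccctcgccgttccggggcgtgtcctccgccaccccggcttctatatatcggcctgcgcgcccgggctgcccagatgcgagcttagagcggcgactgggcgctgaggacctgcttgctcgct
Eno2: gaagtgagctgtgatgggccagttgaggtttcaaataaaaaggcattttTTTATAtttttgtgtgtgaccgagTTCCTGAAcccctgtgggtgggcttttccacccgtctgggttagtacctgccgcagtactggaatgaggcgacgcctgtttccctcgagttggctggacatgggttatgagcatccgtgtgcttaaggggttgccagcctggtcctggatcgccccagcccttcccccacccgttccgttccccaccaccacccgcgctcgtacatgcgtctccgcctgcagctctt
Ccl12: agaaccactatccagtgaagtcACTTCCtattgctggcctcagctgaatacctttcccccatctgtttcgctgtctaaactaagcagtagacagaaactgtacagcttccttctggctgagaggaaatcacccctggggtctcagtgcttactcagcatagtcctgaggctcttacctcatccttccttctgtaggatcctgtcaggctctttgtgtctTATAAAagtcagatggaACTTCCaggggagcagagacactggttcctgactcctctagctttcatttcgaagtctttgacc

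In GRCm38 these windows are chr5:30012864-30013163 (+) for Il6, chr11:7213874-7214173 (-) for Igfbp3, chr6:124769624-124769923 (-) for Eno2 and chr11:82101595-82101894 (+) for Ccl12. The Il6 promoter held an AP-1 match starting at -249, a C/EBP match at -128, a CCAAT box at -106 and an NF-kB match at -44 relative to the start site. Ccl12 held ETS core matches starting at -228 and -14 and a TATA match at -31. The Igfbp3 window was the most CpG-rich of the 4, with 37 CpG dinucleotides against 2 in that of Ccl12.

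Seen as a class, the member promoters were poor in CpG. A promoter was counted as CpG-rich when its 300 bp window had a GC content of at least 55% and an observed over expected CpG ratio of at least 0.75. By this measure 6 of 114 members were CpG-rich (5.26%, 95% Wilson interval 2.43% to 11%, which covers counting error only): Igfbp3, Wif1, B4galt5, Kcnab2, Cttnbp2 and Zfp382. Of the promoters acetylated in all 4 tumors 44.9% were CpG-rich, of those acetylated in none 7.5%, of the test-only promoters 24.2%, and of all promoters 27.3%. The share of members was thus near that of promoters without any peak, and the 36 leukocyte members included 0 CpG-rich promoters. The median CpG ratio was 0.279 over the members, 0.215 over promoters acetylated in none and 0.763 over those acetylated in all 4 tumors.

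Motif letters showed no single likeness to either class. The GC box occurred in 35.1% of member promoters, 62.8% of those acetylated in all 4 tumors, 20.5% of those acetylated in none and 43.7% of all promoters. The ETS core occurred in 38 of 114 members (33.3%), 28.8% of promoters acetylated in all 4 tumors, 20.3% of those acetylated in none and 24.9% of all promoters, and in 18 of the 36 leukocyte, 2 of the 6 endothelial and 1 of the 16 matrix and stromal members. C/EBP letters were present in 49 members (43.0%), 32.1% of promoters acetylated in all 4 tumors, 48.4% of those acetylated in none and 39.2% of all promoters, and in 22 of the 36 leukocyte, 0 of the 6 endothelial and 6 of the 16 matrix and stromal members. AP-1 letters were found in 12 members (10.5%), 2 of them leukocyte genes, NF-kB letters in 12 (10.5%) and RUNX letters in 23 (20.2%), against 6.88%, 9.26% and 15.4% of all promoters. Among promoters that were not CpG-rich the shares for the ETS core were 34.3% of members and 24.9% of all genes, and for C/EBP 45.4% and 46.2%. These are shares of windows that hold the letters, with no test made between classes.

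The peaks that placed genes in the set were small. In control 1 the widths ran from 155 to 3971 bp, 89 of 114 were under 500 bp and 9 reached 1 kb. In control 2 they ran from 158 to 2583 bp, with 83 under 500 bp and 13 of at least 1 kb. At promoters acetylated in all 4 tumors 8.18% and 6.59% of peaks in the control tumors were under 500 bp. Both control peaks were under 500 bp at 67 members and both reached 1 kb at 2. The 66 test-only promoters had peaks of a like size, with medians of 275 bp in test 1 and 274 bp in test 2, so narrow peaks were shared by the genes picked in either direction.

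**Figure D1:**
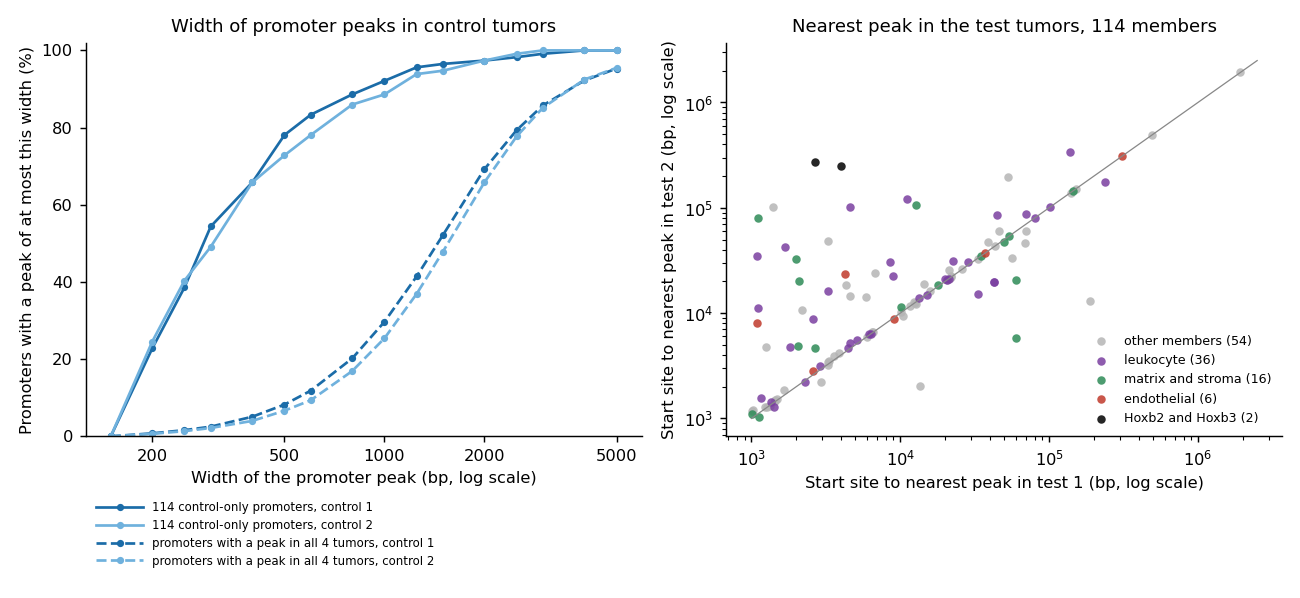
Left, cumulative percent of promoters (y axis) whose promoter peak is at most a given width in bp (x axis, log scale), in control 1 (dark blue) and control 2 (light blue), for the 114 members (solid lines) and for the promoters with a peak in all 4 tumors (dashed lines). Member peaks are narrower at every width between 200 and 3000 bp. Right, distance in bp from each member's start site to the nearest peak in test 1 (x axis) and test 2 (y axis), log scales, 1 point per member coloured by function, with the line of equal distance; 77 members lie above the line, where the peak of test 2 is the farther.

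Most control peaks at members lay beside the start site. The site itself fell inside a peak of both control tumors at 7 members (6.14%), in 1 of them at 17, and in neither at 90, whereas it fell inside peaks of both control tumors at 70.6% of promoters with a peak in all 4. The midpoint of the control peak was downstream of the start site at 92 members in control 1 and 87 in control 2. Over all 114 members its median position was 297 and 309 bp into the gene. The share with a downstream midpoint, 80.7% and 76.3%, compares with 70.0% and 72.6% at promoters acetylated in all 4 tumors. Taking in each control tumor the peak with the most bases in the window, these overlapped at 85 members and lay apart at 29, of which Ccl12 is an example, with its peak centred at 350 bp from the start site in control 1 and at -912 bp, upstream, in control 2.

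Matrix and stromal genes came first among the named members by their place on lists. Dcn, which encodes the collagen-binding proteoglycan decorin, had 525 and 824 bp of its 2 kb promoter window in peaks in control 1 and control 2 and 0 bp in either test tumor. The nearest peak to the Dcn start site lay 144931 bp away in test 1 and 144473 bp away in test 2. From 1 to 10 kb, peaks covered 1.71% of bases in control 1, 3.97% in control 2 and none in either test tumor. Dcn was thus one of the members with the longest stretch free of test peaks.

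Loxl1, a lysyl oxidase that cross-links elastin, had 271 and 564 bp of its window in control peaks. Its nearest test peaks lay 1983 bp away in test 1 and 32628 bp away in test 2, and its flank coverage was 6.21%, 6.26%, 2.55% and 0% in control 1, control 2, test 1 and test 2. The test tumors were therefore both below the controls, and test 1 had a peak within 2 kb of the start site, separate from the control peaks at the promoter. Igfbp3, a secreted carrier of insulin-like growth factors, had 308 and 133 bp, in peaks that did not overlap each other, with flanks of 4.75%, 0.5%, 0% and 0%. Emilin2, an elastin-associated glycoprotein, had 320 and 240 bp, and test peaks lay close to it, at 1133 and 1028 bp. Mmp19, a matrix metalloproteinase, had 242 and 158 bp and no test peak nearer than 10076 bp.

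Il6, the pro-inflammatory cytokine, had 845 and 438 bp of control peaks, which overlapped by the whole width of the peak of control 2. The nearest peak to Il6 was 59574 bp away in test 1 and 5752 bp away in test 2, where its flank coverage of 0.906% overlapped the control values of 2.68% and 0%. Il34, a ligand of the macrophage growth factor receptor Csf1r, had 803 and 259 bp, with flanks of 20.7% and 14.6% in the controls and 10.1% and 7.90% in the test tumors. Other members of this group make or bind hyaluronan (Has2, Tnfaip6), take up collagen (Mrc2), build basement membrane (Hmcn1) or restrain Wnt ligands (Wif1). Over the 16 genes, flank coverage was lower in both test tumors than in both control tumors for 9, overlapped for 4 and was absent for 3, and 8 had no test peak within 10 kb. Over all genes with flank coverage, 12.8% were lower in both test tumors and 17.0% were higher in both.

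Endothelial members were Pecam1, Eng, Egfl7, Cd34, Adgrl4 and Bcl6b. Pecam1, the adhesion molecule CD31 at junctions between endothelial cells, had 428 and 246 bp in control peaks, with flanks of 7.01%, 7.5%, 3.52% and 0.900% in control 1, control 2, test 1 and test 2. Its nearest test peak was 1084 bp away in test 1, part of the same joined region as the control peak, and 8052 bp away in test 2. The Pecam1 start site lies 598 bp from that of Milr1 on the other strand, so the window holds both promoters. The control peaks in the window lay upstream of the Pecam1 start site, on the side of Milr1. Milr1 had a promoter peak in 3 tumors, and which of both genes the peaks belong to cannot be told apart. Eng, a co-receptor for TGF-β ligands, had 162 and 986 bp and flanks of 7.55%, 12.5%, 1.54% and 1.12%. Cd34, a sialomucin of vessels and blood progenitors, had 359 and 345 bp and flanks of 7.49%, 2.68%, 0% and 0%, with the nearest test peaks over 37 kb away. Flank coverage was lower in both test tumors for 4 of the 6, against 12.8% of all genes with coverage, Egfl7 overlapped, and Adgrl4 had none in any tumor.

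**Figure D2:**
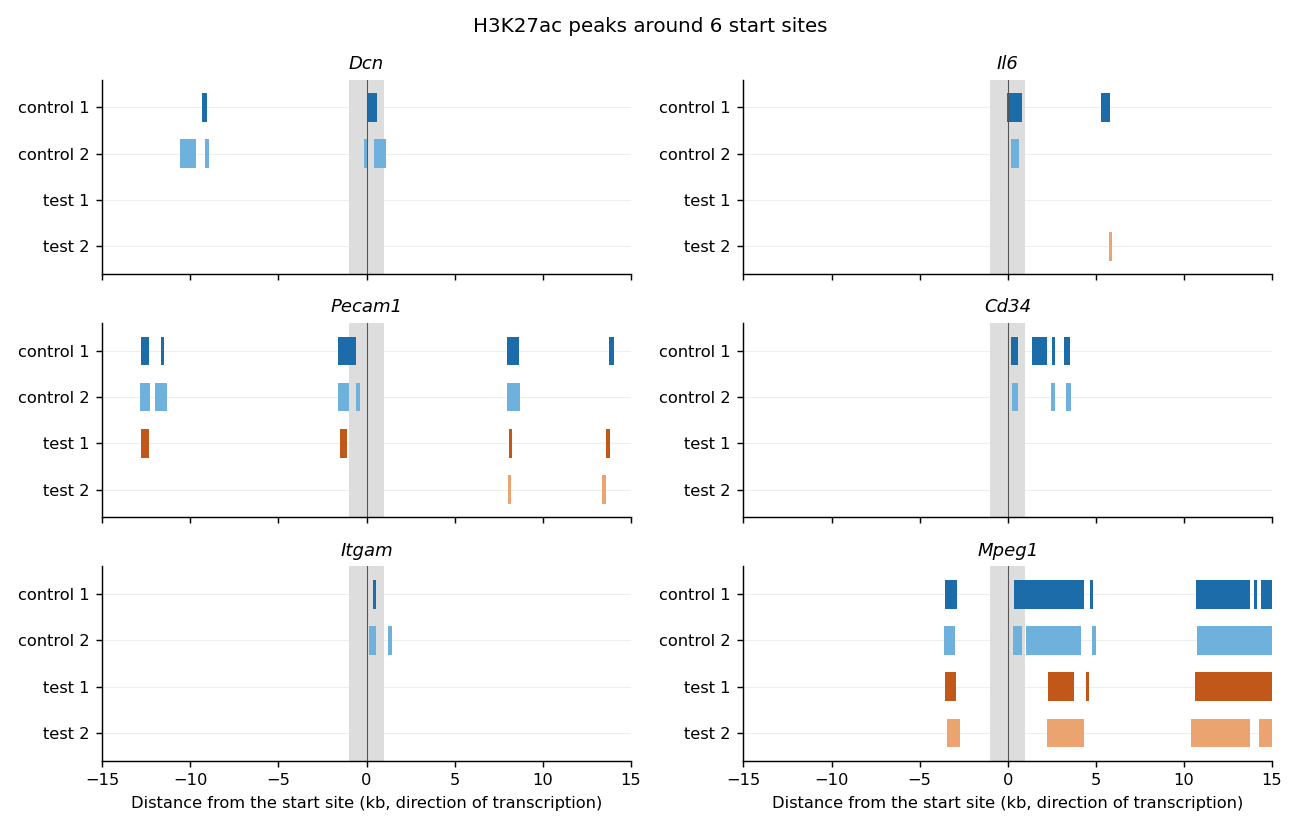
H3K27ac peaks (bars) from 15 kb before to 15 kb after the start sites of Dcn, Il6, Pecam1, Cd34, Itgam and Mpeg1 in each of the 4 tumors (rows); the x axis is distance in kb in the direction of transcription, and grey marks the window of 1 kb either side that defined the members. Dcn, Cd34 and Itgam have no test peak in view, whereas at Mpeg1 test peaks cover much of the gene beyond the window.

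Among leukocyte members were receptors of myeloid cells, antigen presentation genes and parts of the leukocyte cytoskeleton. Itgam, the CD11b chain of the integrin Mac-1, had 155 and 365 bp in control peaks and no test peak within 42923 bp in test 1 or 19794 bp in test 2. The predicted gene Gm49368 starts 43 bp from Itgam and shares its peaks, so the 2 entries are a single measurement. Ms4a7, a membrane protein of macrophages, had 389 and 569 bp, with test peaks 1677 and 42606 bp away. Mpeg1, the pore-forming protein perforin-2 of phagocytes, had 666 and 478 bp, and its flanks were 23.2% and 22.1% in the controls and 12.4% and 15.9% in the test tumors. Both test tumors therefore had no Mpeg1 peak near the start yet had acetylation within 10 kb of it.

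Antigen presentation was represented by Cd74, the invariant chain, H2-Ab1, an MHC class II beta chain, and Cd40, a co-stimulatory receptor. H2-Ab1 had 215 and 612 bp in control peaks and flanks of 11%, 9.62%, 5.71% and 2.24%, and another of its annotated starts, 5520 bp away, had peaks in all 4 tumors. Cd74 had 526 and 205 bp and flanks of 10.4%, 6.91%, 5.49% and 5.22%. Cd40 had peaks of 155 and 160 bp and no other peak in its flank in any tumor. Both class II genes were thus lower around the promoter but not bare in test tumors.

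Secreted leukocyte products were Il1b and Ccl12. Il1b, an inflammasome cytokine, had 416 and 161 bp in control peaks and flanks of 13.8%, 12.1%, 6.75% and 5.84%. Ccl12, a monocyte chemokine, had 156 and 375 bp, flanks of 2.18% and 1.32% in the controls and none in the test tumors, and no test peak within 79720 bp. Tgtp1, an interferon-induced GTPase, had peaks of 158 and 163 bp, with test peaks at 1408 and 1297 bp, just beyond the window.

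Other leukocyte members were P2ry13 and P2ry14, receptors which bind nucleotides and sit 57264 bp apart. Cnr2, the cannabinoid receptor of immune cells, and Gpr18 were members too. P2ry13 had 1205 and 198 bp and flanks of 16.6%, 9.71%, 8.23% and 2.08%. Cd300a, Cd300ld and Cd300ld3, immunoglobulin-like receptors of myeloid cells, lay within 158368 bp of each other without sharing a peak. Over all 36 leukocyte members the controls had a mean flank coverage of 5.10% and 4.87%, test 1 one of 3.47% and test 2 one of 2.27%. Flanks were lower in both test tumors for 16 (12.8% of all genes with coverage), higher in both for 0 (17.0% of all genes), overlapping for 16 and without peaks for 4.

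Hoxb2 and Hoxb3, homeodomain factors of axial patterning, had the most acetylated windows of all members, by the lower of both control values. Hoxb3 had 1669 and 1547 bp of its window in control peaks and flanks of 47.9%, 41.3%, 5.53% and 0%. Hoxb2 had 1043 and 1210 bp and flanks of 37.5%, 40.1%, 6.04% and 0%. The difference reached beyond both genes: over the 96800 bp from Hoxb9 to Hoxb1 (chr11:96271457-96368256), peaks covered 25.1% and 24.0% of bases in control 1 and control 2, 2.39% in test 1 and 0% in test 2, in 27, 31, 7 and 0 peaks. Hoxb4 and Hoxb7 missed the rule because of test 1, with window values of 1568, 1551, 604 and 0 bp for Hoxb4 and 605, 1182, 232 and 0 bp for Hoxb7. The nearest peak to the Hoxb3 start site in test 2 was 246722 bp away.

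**Figure D3:**
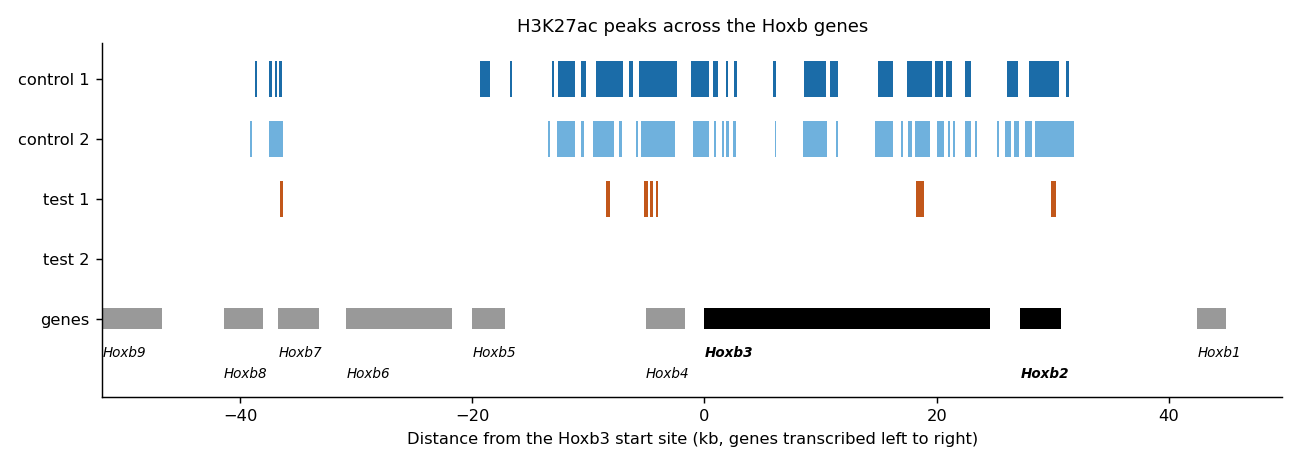
H3K27ac peaks (bars) in each of the 4 tumors (upper rows) and gene bodies (bottom row, members Hoxb3 and Hoxb2 in black) across the Hoxb genes; the x axis is distance in kb from the Hoxb3 start site, with genes transcribed left to right. Control 1 has 27 peaks, control 2 has 31, test 1 has 7 and test 2 has 0.

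Metabolic members ranged from empty to densely acetylated surroundings. Eno2, a glycolytic enolase best known from neurons, had 155 and 459 bp in control peaks, no flank coverage in any tumor, and test peaks no nearer than 10165 bp. Of the 12 genes of metabolism and transport 5 had empty flanks in all tumors, among them Pdk4, a kinase that restrains pyruvate dehydrogenase, and Ch25h, which makes 25-hydroxycholesterol. Only Pgpep1l had lower flanks in both test tumors, and Treh, trehalase, had higher ones (2.17%, 1.75%, 3.43% and 2.39%). Hsd11b1, which regenerates active glucocorticoid, had flanks of 29.7%, 26.1%, 28.8% and 26.9%, so its surroundings overlapped between groups, and its window held peaks of 262 and 1227 bp in the control tumors.

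Flanks of several receptors and adhesion genes overlapped likewise. Ager, the receptor for advanced glycation end products, had a control peak of 155 bp in the window of control 1 inside flanks of 56.8%, 59.0%, 57.2% and 49.2%. Itga6, a laminin-binding integrin chain, had flanks of 9.69%, 11%, 12.1% and 9.56%. Psen2, a presenilin, had flanks of 16.1%, 17.3%, 19.3% and 14%. Of the 12 members of this kind 4 had no flank coverage in any tumor, among them Adora2a, an adenosine receptor. Among those with coverage, flanks were lower in both test tumors for 2, Fblim1 being 1 of them, and overlapped for 6. Of all genes with coverage 12.8% were lower in both test tumors.

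Members with flanks covered at 10% or more in both test tumors numbered 14 in all. At the other end, 18 had flank coverage in both control tumors and 0% in both test tumors, Dcn, Cd34, Hmcn1, Mmp19, Igfbp3, Adam8 and Gimap6 among them. Of the 88 members with any peak from 1 to 10 kb, flank coverage was lower in both test tumors than in both controls for 44 (50%), against 12.8% of the 12485 genes with such coverage, and higher in both for 2 (2.27%), against 17.0%. The ranges of both groups overlapped for 42. Test-only genes went the other way: of 31 with flank coverage, 14 (45.2%) were higher in both test tumors and 1 (3.23%) was lower in both. The median difference, test minus control, was -1.65 percentage points over the 88 members and 0.13 over all genes with coverage, and it ran from -2.28 to -0.95 over the 4 test and control pairs. Among members lower in both test tumors the largest falls were at Hoxb3 (-41.9), Hoxb2 (-35.8), 5730596B20Rik (-11.8), Eng (-8.70) and Il34 (-8.62), and the 2 members higher in both were Treh (0.956) and Rbms2 (0.936), an RNA-binding protein gene. Among overlapping members the difference was greater at Trpm2 (2.79), Fam167b (1.87), Meig1 (1.27) and Slamf9 (1.17).

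Flanks share the contrast that chose the members, and a control promoter peak ran past 1 kb at 36 of them, so the flank count is no independent support. Among the 52 members with flank coverage and no such peak, flanks were lower in both test tumors for 20 (38.5%) and higher for 1, beside 12.8% and 17.0% of all genes with coverage, which were not limited in this way. Test 2 had 0% flank coverage at 73 of 114 members, test 1 at 56, control 1 at 34 and control 2 at 33.

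**Figure D4:**
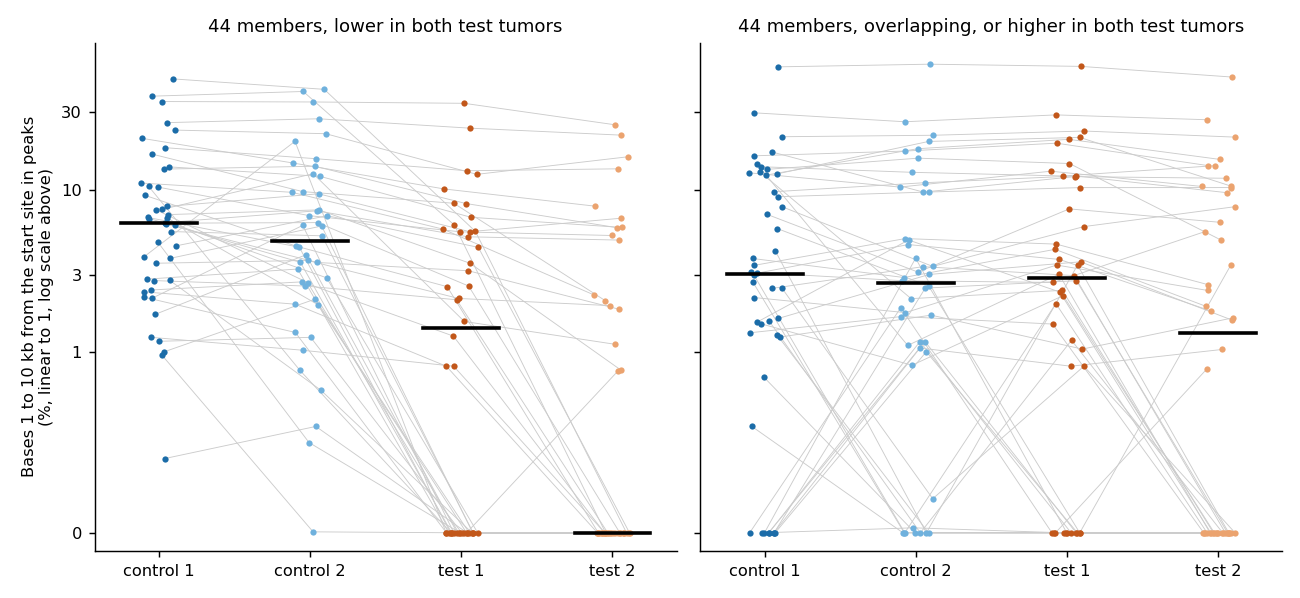
Percent of bases from 1 to 10 kb either side of the start site in H3K27ac peaks (y axis, linear to 1% and logarithmic above) in each tumor (x axis), for the 88 members with any such coverage; points joined by a line are 1 member and black bars are medians. Left, the 44 members lower in both test tumors, where the median of test 2 is 0%; right, the other 44 members, 42 of which overlap between groups and 2 of which are higher in both test tumors.

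How far test peaks stood from member promoters varied over 3 orders of magnitude. The median distance from the start site to the nearest peak was 8986 bp in test 1 and 17336 bp in test 2, and the peak was farther in test 2 for 77 members and nearer for 37. Within 2 kb a test peak was present for 23 members, and the nearest were at Snorc (1008 bp), Toporsl (1015), Lin28a (1025), Emilin2 (1028) and Pecam1 (1084). No test peak lay within 10 kb of 53 members or within 100 kb of 9. The farthest were at Zik1 (1926564 bp), the olfactory receptor gene Olfr1033 (488065), the endothelial receptor gene Adgrl4 (310574), Sirpb1c (176744) and Kcnab2 (150556). When overlapping peaks of all tumors were joined, 104 member regions held no test peak in any part, 4 ran on to a peak of test 1, 6 to peaks of both test tumors and 0 to a peak of test 2 alone.

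At the edge of the rule values were close. Members with under 60 bp of the window covered in a control tumor were Toporsl (15 and 253 bp), BC035947 (932 and 17), Pid1 (155 and 28), Lin28a (43 and 133), Treh (251 and 49) and Fblim1 (56 and 58). The genes just outside had small test peaks in the window: Gimap4 had 333, 411, 32 and 0 bp in control 1, control 2, test 1 and test 2, Brd3 501, 48, 48 and 0 bp, Gng2 533, 309, 52 and 0 bp, Gm10964 31, 46, 61 and 0 bp, and Ppp1r3b 472, 33, 69 and 0 bp. Among the members furthest inside the rule, by the lower of both control values, were Hoxb3 (1547 bp), Hoxb2 (1043), Gimap6 (709), Scrn1 (633), Wdtc1 (575), Dcn (525), Gm10974 (514), Pld4 (506) and Spo11 (497).

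Test 2 lacked promoter peaks more often than test 1. Of the 11104 genes with a promoter peak in both control tumors, 114 lacked one in both test tumors (1.03%), 365 had one in test 1 but not in test 2, and 41 had one in test 2 but not in test 1. Test 2 also had the fewest peaks, and with the widest 59762 peaks of each tumor the counts were 95 control-only and 90 test-only genes. Depth is unknown, and its part in the result was not tested.

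The window was set at the 5′ end of each gene, and which annotated start is in use was not measured. Of the 114 members 71 had another annotated start over 1 kb away, and at 18 of them such a start had a peak in all 4 tumors: Abcb9, Cmtm3, Emilin2, Fblim1, H2-Ab1, Hsd11b1, Itga6, Jaml, Nedd9, Neurl3, Pecam1, Psen2, Rbms2, Scrn1, Snorc, Tgtp1, Wdr63 and Wdtc1. Another gene, Gm12185, starts within 1 kb of such a start of Tgtp1, 1282 bp away. The peaks there cannot be assigned to either gene. At Itga6 the start 41313 bp away had 1677, 1502, 1460 and 1263 bp of its window in peaks in control 1, control 2, test 1 and test 2. At Nedd9, a scaffold of focal adhesions, the values at a start 127623 bp away were 1030, 1022, 1102 and 1029 bp. For these genes the class describes a single start and not the gene. At a further 7 members (Cd37, Hoxb3, Meig1, Ms4a7, Pid1, Pld4 and Slc11a1) another start had a peak in a test tumor but none had peaks in all 4, and 89 members had no other start over 1 kb away with a test peak.

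On lists of pathway genes the members were few. Of 195 matched genes for epithelial-mesenchymal transition (EMT) 5 were control-only (Dcn, Eno2, Igfbp3, Il6 and Loxl1; 2.56%, against 0.548% of all genes) and 1 was test-only, and 129, 128, 122 and 96 had a promoter peak in control 1, control 2, test 1 and test 2. Control-only genes numbered 2 of 97 core matrix genes (Dcn and Emilin2), 2 of 61 matrix remodelling genes (Loxl1 and Mmp19), 1 of 50 chemokine and receptor genes (Ccl12), 1 of 47 interferon-stimulated genes (Tgtp1), 1 of 17 genes of the insulin-like growth factor axis (Igfbp3), 1 of 17 IL-6 family cytokine, receptor and signalling genes (Il6) and 1 of 38 hypoxia and glycolysis genes (Eno2). None of 43 mammary differentiation genes, 108 Notch, Wnt and TGF-β genes or 51 cytosolic ribosome genes was control-only, and all 51 ribosome genes had peaks in every tumor. The Notch, Wnt and TGF-β list does not hold the members Wif1 and Eng, which act on Wnt and TGF-β ligands. Of 222 G protein-coupled receptor genes picked out by symbol patterns 5 were members (Adgrl4, Cnr2, Gpr18, P2ry13 and P2ry14), which is 2.25%. The patterns missed the receptors Adora2a and Uts2r and left out olfactory receptors. Of 1457 olfactory and vomeronasal receptor genes 1 was a member (Olfr1033, 0.0686%). Other families picked by symbol held 3 of 372 solute carrier genes, 2 of 243 ion channel genes and 0 of 312 kinase and phosphatase genes.

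Marker lists of stromal and vessel cells differed between tumors too. Beside the 0.548% of all genes that were control-only, 3 of 22 endothelial markers were (Pecam1, Eng and Egfl7), and 11, 6, 6 and 0 had a promoter peak in control 1, control 2, test 1 and test 2. Fibroblast markers, with Dcn and Loxl1 as members, had peaks at 9, 7, 6 and 0 of 23 promoters. Myeloid markers, with Itgam and Ms4a7 as members, had peaks at 17, 15, 13 and 11 of 26 promoters, and the pan-leukocyte gene Ptprc kept one in every tumor (583, 514, 510 and 193 bp). The endothelial marker Cdh5 followed the members except in test 1, with 958, 257, 166 and 0 bp.

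Among the lists of other cell types, the neural and glial one held 1 member (Eno2) and the following held none. Promoter peaks were present at 7, 6, 5 and 4 of 14 pericyte and smooth muscle markers, 3, 4, 4 and 2 of 24 T and NK cell markers, 1 of 11 B cell markers in each tumor, 22, 21, 22 and 21 of 23 luminal markers and 11, 7, 10 and 3 of 18 myoepithelial markers. Test 2 was thus the tumor with no endothelial and no fibroblast marker promoter called, and the 6 endothelial promoters of control 2 included 3 without a peak in test 1. In tumor tissue, fewer cells of a type and less acetylation per cell cannot be told apart, and the part of cell make-up in the result was not tested.

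**Figure D5:**
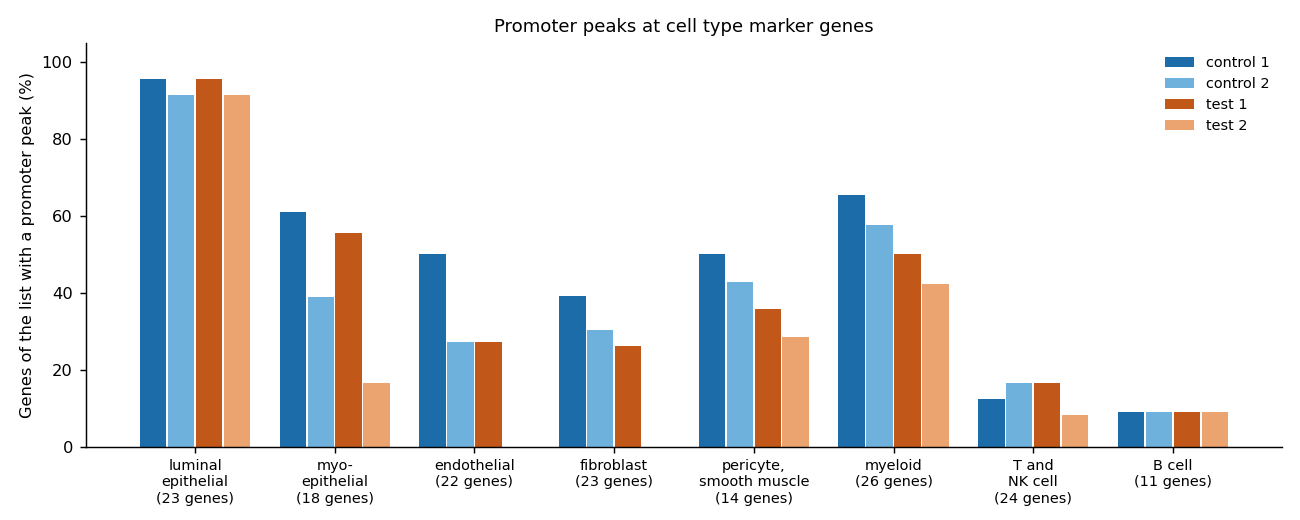
Percent of the genes of each cell type marker list with an H3K27ac peak within 1 kb of the start site (y axis, from 0) in control 1, control 2, test 1 and test 2 (bars); list sizes stand under the names. Luminal lists are near-complete in all 4 tumors, and the endothelial and fibroblast bars of test 2 are at 0.

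Changing the definition changed which genes were members more than how many. With a window of 500 bp either side 115 genes were control-only, 81 of them among the 114, and with a window of 2 kb the count was 120 with 91 shared. Using any annotated start gave 114 genes, of which 88 were shared, and equal peak numbers per tumor gave 95, of which 78 were shared, beside 90 test-only genes. With peaks of at least 1 kb, 93 genes were control-only and just 3 of them were members (Hoxb3, Snorc and Cmtm3). Under the other 6 definitions tried, which also include at least 200 covered bases and peaks joined within 1 kb, 31 members stayed, among them Dcn, Il6, Il34, Hmcn1, Mrc2, Tnfaip6, Hoxb2, Cd34, Mpeg1, Gimap6, Cd300a, Adam8, Lsp1, Nckap1l and Pilra. With 2 tumors a group, an exact permutation test over tumors could not give a p-value below 0.333.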

How the data were processed

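H3K27ac ChIP-seq peak lists of 2 control and 2 test breast tumors were analysed; their input libraries were not used here. Reads had been aligned by the authors to mm10 (the GRCm38 assembly) with BWA, and peaks had been called in each tumor separately with MACS2 against its input. The deposited lists give chromosome, start and end in base pairs with the names of joined caller peaks, and no score. Per the file names, peaks had been cleaned and merged over 200 bp (smallest gap 201 bp). Sequencing depth is unknown, and a deeper library can yield more and wider peaks, so no interval for counting reads is given.

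Groups were taken from the genotype per the labels. Genes and starts came from GENCODE M21; the start site was the 5′ end of the gene, and any overlap of at least a base with the window of 1 kb either side counted as a peak. Counting sex chromosomes, 117 genes met the rule. Flank coverage was the percent of bases from 1 to 10 kb either side in peaks. Genes without any were left out, except from the leukocyte means, which cover all 36 leukocyte members. Promoter sequences were read from the GRCm38 genome; 84 members had an entry in the RefSeq promoter table, whose start lay within 100 bp for 62 and over 1 kb away for 10. Python 3.11.15, numpy 2.4.6, scipy 1.17.1 and matplotlib 3.10.9 were used. The classification was tested on simulated data with 200 control-only genes planted.

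The members and the gene lists were chosen with earlier results of these data known, and functions were assigned after the names were seen. Named genes were members on any list, the 10 with the most covered window bases, the 5 nearest to and farthest from test peaks, the 5 largest flank falls and rises, members with another start acetylated in all 4 tumors, the 5 genes just outside the rule, and others picked after their values were seen; some of these are not reported here. Alternatives were other windows, a minimum of 200 covered bases, any transcript start, peaks of at least 1 kb, equal peak numbers (the widest 59762 in each tumor), peaks joined within 1 kb, a 1 to 5 kb flank, a longer sequence window, and leaving out each tumor.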

Additional observations from a re-analysis of the deposited data

How the results depend on the processing

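Across the other windows, overlaps, starts and peak selections 93 to 120 genes were control-only and 66 to 90 test-only, except that with peaks of at least 1 kb 179 were test-only, more than the 93 control-only. Leaving out a tumor loosens the rule: the control-only count then ran from 155 to 479 (267 without control 1, 246 without control 2, 479 without test 1) and the test-only count from 144 to 211 (144 without control 1, 184 without control 2, 195 without test 1, 211 without test 2).

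The median flank difference stayed negative in every alternative run. It was -3.23 percentage points for flanks of 1 to 5 kb, -2.80 with peaks of at least 1 kb, and from -2.02 to -1.22 with a tumor left out. Members with flanks lower in both test tumors numbered 9 with peaks of at least 1 kb (5 higher, of 39 with coverage) and 48 to 61 with a tumor left out (4 to 13 higher, the most without test 2). With peaks of at least 1 kb 20 members kept a control region, and 16 of these regions held no test peak; with a tumor left out 104 to 109 did. The 1 to 5 kb flank gives no value for regions. The CpG-rich share was 5.26% in both sequence windows. No paired analysis was possible because the labels tie no control tumor to a test tumor (the numbers 1 and 2 only name tumors within a group) and no test was made. Depth, peak height and expression are unknown here.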

Other observations

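The chromosomes held members unevenly in number, with 13 each on chromosomes 1, 2 and 11 and 1 on chromosome 12, which is 1.08%, 0.705%, 0.793% and 0.156% of their protein-coding genes. Few members were neighbours: apart from Itgam with Gm49368, only the Cd300 genes, Hoxb2 with Hoxb3 (27199 bp), P2ry13 with P2ry14 and the lysosomal channel gene Mcoln2 with the ciliary dynein gene Wdr63 (41703 bp) had start sites within 200 kb of another member. Members had a median gene length of 17.7 kb, close to the 17.6 kb of all genes, while genes acetylated in all 4 tumors had 22.6 kb and test-only genes 30.8 kb.

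Genes of cilia and the germ line made up 6 members. Spo11, which cuts DNA in meiosis, had 497 and 992 bp of its window in control peaks and no flank coverage in any tumor, and Dnah6, an axonemal dynein chain, had 388 and 508 bp with flanks of 1.17%, 1.23%, 0% and 0%. Lin28a, an RNA-binding protein of stem cells, had 43 and 133 bp and lay 1025 bp from a test peak.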
